A study of Mus musculus with 2 samples.

Results

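Suffix incomplete matches are transcript models whose introns equal the 3' introns of a known transcript, so that 1 or more exons at the 5' end are missing while the 3' part is kept. All rows of this class with at least 2 exons were taken from the transcript tables of both libraries. Replicate 1 listed 9592 such models and replicate 2 listed 10438, out of 58180 and 63076 rows of every class. Matched by chromosome, strand and all introns, they came to 15891 different models. Over every class the count was 101899, with known transcripts matched by identifier. In that count, other single-exon models were not matched and were counted in each library separately.

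The libraries were made by long-read RNA sequencing, in which 1 read can span a spliced transcript from end to end. Both came from heart tissue of female B6CASTF1/J mice, the first-generation cross of a C57BL/6J and a CAST/EiJ parent, aged 18 to 20 months, with 2 µg of RNA each and spike-in RNAs added. In the labels, the libraries differ in biological replicate number and biosample but name 1 donor entry, so the spread between them may be partly technical. There was 1 group and no contrast between conditions. Every test below therefore compares these 2 libraries with counting error only.

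Reads of the haemoglobin genes Hba-a1 and Hbb-bs summed to 15210 and 6368, of the 3 fibroblast markers to 202 and 305, of the 4 endothelial markers to 65 and 68, and of the 3 macrophage markers to 42 and 58. Heart muscle markers summed to 24631 and 24437 reads over 7 genes, none at 0. The sums cover different numbers of genes. In replicate 1, Hba-a1 had 10349 reads, above the highest heart muscle marker, Pln, at 9499. In replicate 2 they had 4361 and 9718. The part of these marker levels in the suffix values was not tested. In such bulk tissue, fewer cells of a type and less RNA per cell cannot be told apart.

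A read that keeps the 3' end of a transcript and lacks its 5' exons can arise in several known ways. Reverse transcription starts at the poly(A) tail and can stop before the cap, RNA can break before or during extraction, and a gene can have a promoter inside its annotated body. A class defined by the chain of introns holds all of these, and which of them applies to any model below was not tested. Heart muscle devotes much of its mRNA to long contractile proteins and to short subunits of mitochondrial enzymes. The suffix models described below come from transcripts of very different sizes, and the part of tissue composition in this was not tested.

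The models differ in where the kept part begins, and 5 genes among those with the most reads in both libraries show the range. Each line gives the known transcript across the first base of its leading suffix model. The part missing from the model is in lower case and the kept part in capitals, 5' to 3' on the transcript's strand.

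Ndufa4: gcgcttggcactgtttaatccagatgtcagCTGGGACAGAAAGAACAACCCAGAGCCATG
Atp5b: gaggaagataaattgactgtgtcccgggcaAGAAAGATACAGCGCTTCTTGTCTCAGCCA
Hrc: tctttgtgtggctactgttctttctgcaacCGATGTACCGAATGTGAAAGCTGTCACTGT
Ndufs7: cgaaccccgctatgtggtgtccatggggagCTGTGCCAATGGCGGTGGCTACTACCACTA
Ndufa13: ggctcacgaaagaaaGGAACCTCCTGGGTG

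The sequences are those of the GENCODE M21 reference transcripts, which carry the C57BL/6J alleles, and the coordinates are in mm10. In Ndufa4, a subunit of cytochrome c oxidase, the break falls at the start of exon 3 of 4 of Ndufa4-205 (chromosome 6, first base 11905262, minus strand). The model keeps 115 of 246 coding bases, with no in-frame ATG among them. In Atp5b, the catalytic beta subunit of ATP synthase, it falls inside exon 9 of 10 of Atp5b-201 (chromosome 10, 128089041, plus strand), at the annotated start of another, shorter transcript of the gene. The model keeps 216 of 1587 coding bases. The kept part of Atp5b has an in-frame ATG 60 bases on, which is the first of the last 52 of 529 codons, the stop codon not counted.

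In Hrc, a calcium-binding protein of the sarcoplasmic reticulum, the kept part starts at exon 3 of 6 (chromosome 7, 45337887, plus strand) and holds 195 of 2214 coding bases. In Ndufs7, a complex I subunit, it starts at exon 7 of 8 (chromosome 10, 80255924, plus strand) with 184 of 672 coding bases and no in-frame ATG. Ndufa13, another complex I subunit, differs from the others: the break lies at exon 2 of 5 (chromosome 8, 69901732, minus strand), before the start codon. That model begins 97 bases upstream of the start codon and keeps all 432 coding bases.

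Suffix models took 55270 of 630211 mouse reads in replicate 1, or 8.77% (exact Clopper-Pearson 95% interval 8.70 to 8.84%), and 62049 of 664319 in replicate 2, or 9.34% (9.27 to 9.41%). The mean was 9.06% ± 0.403 (SD, n = 2), and the intervals, which cover counting error only, did not overlap. Of reads in models of 2 or more exons, the share was 11.9% ± 0.635 (SD, n = 2). Prefix models, which lack 3' exons in place of 5' exons, held 0.290% ± 0.00514 (SD, n = 2) of mouse reads. The difference between these 2 classes was larger than the spread between libraries. No suffix model came from a spike-in RNA.

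Most suffix models were rare and most suffix reads sat in few models. Single reads made up 6474 models in replicate 1 and 7096 in replicate 2, which is 67.5% and 68.0%. The 10 models with the most reads held 42.1% and 43.0% of all suffix reads, and 12 genes held 50.3% and 50.8%. Models were spread over 4489 and 4792 genes, of which 2513 and 2618 had 1 model each. Models of 2 exons were 14.8% and 14.6% of models but held 38.7% and 40.3% of reads.

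The listed first base nearly always coincided with a position already in the annotation. It was the annotated start of an exon in 66.3% of models in replicate 1 and 67.0% in replicate 2, and the annotated start of a transcript in 21.3% in each. It was the annotated end of an exon in 7.14% and 6.87%, and elsewhere in only 5.30% and 4.83%. The listed first base thus gives the exon in which a model begins; where within that exon the reads began was not analysed here. By comparison, 94.3% and 93.7% of prefix models began at an annotated transcript start, as did 92.5% and 92.4% of models that join known splice sites in a new combination.

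**Figure D1:**
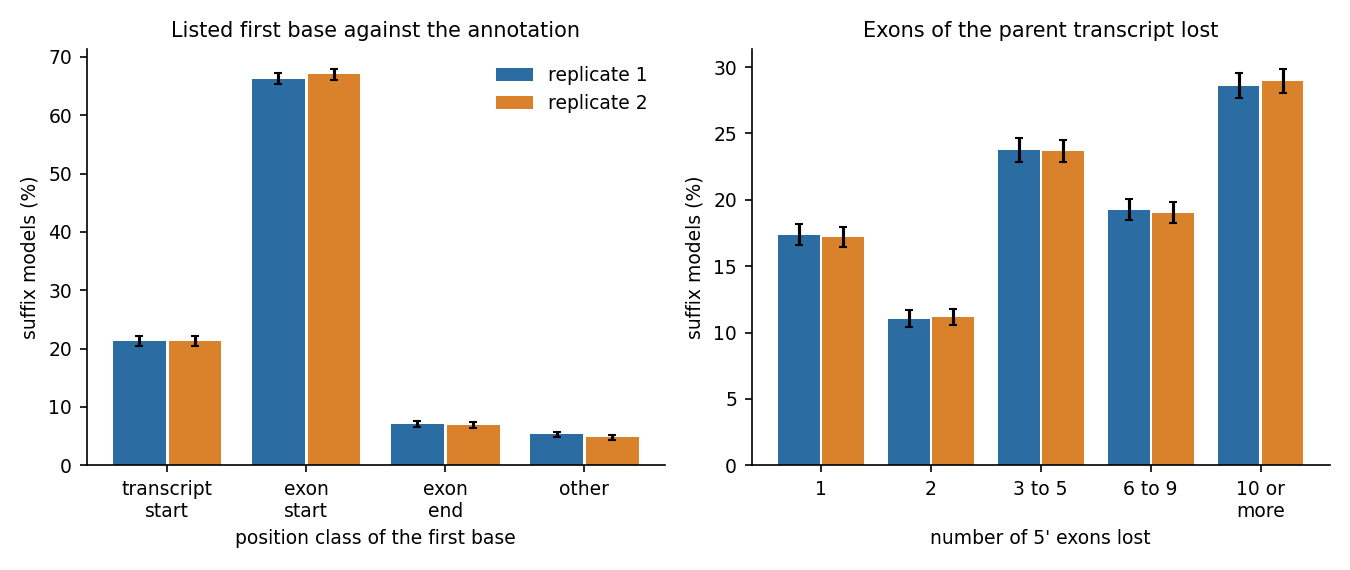
Left, share of suffix models (percent) whose listed first base was an annotated transcript start, exon start, exon end or another position; right, share of those with an annotated parent by the number of 5' exons lost. Bars are 1 library each and error bars are exact 95% intervals; exon starts lead at 66.3% and 67.0%, and the libraries lie close together in each class.

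An annotated parent transcript of the same gene was found for 92.8% and 93.5% of models. In 81.2% and 81.7% of all models the first base lay within the annotated exon that the first intron leaves (mean 81.4% ± 0.362, SD, n = 2). Among models with a parent, 12.6% and 12.7% began upstream of that exon, and 91.0% and 90.2% of these did so at an annotated start of another transcript of the gene. First bases within 50 bases of any annotated start of the gene were 21.5% in each library. A RefSeq promoter window (GRCm38.p6, 250 bases before to 50 after its start) matched by symbol for 7681 and 8340 models. Of these, 2.21% and 2.15% began in it. Of those over 50 bases from an annotated start, 6 of 5998 and 5 of 6493 did. Low values follow in large part from the definitions. Suffix models lack 5' exons, and the last count leaves out first bases near annotated starts. No conclusion on promoters is drawn from them. The 3' end was an annotated transcript end in 88.6% and 88.1%.

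The median model had lost 5 exons (quartiles 2 and 11) of a parent of 13 exons in both libraries. A single exon was lost by 17.4% and 17.2% of models with a parent, and 10 or more by 28.6% and 28.9%. With models weighted by their reads, the median loss was 3 exons in both. Of models with a coding parent, 91.1% and 91.5% lacked the start codon but kept some coding sequence, and a further 0.526% and 0.470% kept none of it. The whole coding sequence was kept by 725 and 768 models, or 8.28% and 8.01%, and these held 14.3% and 12.8% of the reads.

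Where only 1 exon of a coding parent was lost, 43.8% and 42.4% of models kept the start codon, and these held 69.1% and 67.0% of the reads in that subset. In models without the start codon, the first ATG of the remaining coding sequence was in the parent's reading frame in 38.3% (95% interval 37.2 to 39.4%) and 37.7% (36.7 to 38.7%). Over all ATG triplets in the same coding stretches, 39.0% and 39.1% were in frame. That value lay within the interval in replicate 1 and just above it in replicate 2. The intervals treat models as independent, although models of 1 gene share coding sequence. They are therefore too narrow, and no conclusion is drawn from this comparison.

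The 12 genes with the highest level of suffix reads included 6 for subunits of the respiratory chain and ATP synthase. Ndufa4 had 5566 and 6600 suffix reads of its 7819 and 8927 reads outside the genomic class, the class of mostly single-exon models of which only 209 of 7685 and 261 of 8409 had 2 or more exons. Its suffix level was 9377 ± 594 CPM (reads per 1000000 mouse reads after TMM scaling, SD, n = 2), and its share 72.6% ± 1.94. Atp5b had 5442 and 6571 of 7742 and 9234, a share of 70.7% ± 0.614 (SD, n = 2). In both genes the full known transcript was also common, with 2214 and 2271 known-class reads for Ndufa4 and 2188 and 2538 for Atp5b.

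Ndufs7 had 2165 and 2447 suffix reads of 2802 and 3083, a share of 78.3% ± 1.49 (SD, n = 2). Ndufa13, Atp5j and Atp5f1, the last 2 also ATP synthase subunits, stood apart from these because their leading models kept the complete coding sequence. Ndufa13 had 1523 of 1543 reads in suffix models in replicate 1 and 1520 of 1539 in replicate 2, and no listed read of a known transcript. Atp5f1 had 989 of 1008 and 1042 of 1054, with 0 and 1 known reads. So nearly every read of Ndufa13 and Atp5f1 outside the genomic class was in suffix models. The leading model of each gene lacked the first exon of an annotated transcript that itself had 0 listed reads in both libraries. Ndufa13 overlaps Yjefn3 on the same strand, and the part of this overlap in its share was not tested.

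The leading Atp5f1 model kept 7 of 8 exons, with 898 and 946 reads, and its first base at 105959246 of chromosome 3 was the annotated start of another transcript. The leading Atp5j model kept 4 of 5 exons with 1419 and 1386 reads, and likewise began at an annotated start, at 84834832 of chromosome 16. Atp5j as a gene had 1492 and 1471 suffix reads of 1810 and 1773, against 122 and 110 of known transcripts.

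The other genes of the 12 shown here came from the sarcomere, the sarcoplasmic reticulum and mitochondrial quality control. Hrc had 3123 and 3416 of 3200 and 3508, or 97.5% ± 0.153 (SD, n = 2), and only 60 and 56 reads of its known transcript. Myl3, the ventricular essential light chain, had a leading model of 4 of 7 exons with 588 and 603 reads. Pink1, a kinase that marks damaged mitochondria, had 558 and 546 of 823 and 758, and its leading model kept 5 of 8 exons (498 and 509 reads). The light chains Myl3 and Myl2 had lower shares, 16.0% ± 0.0464 and 14.1% ± 0.191 (SD, n = 2), from 732 and 729 and from 459 and 432 suffix reads.

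**Figure D2:**
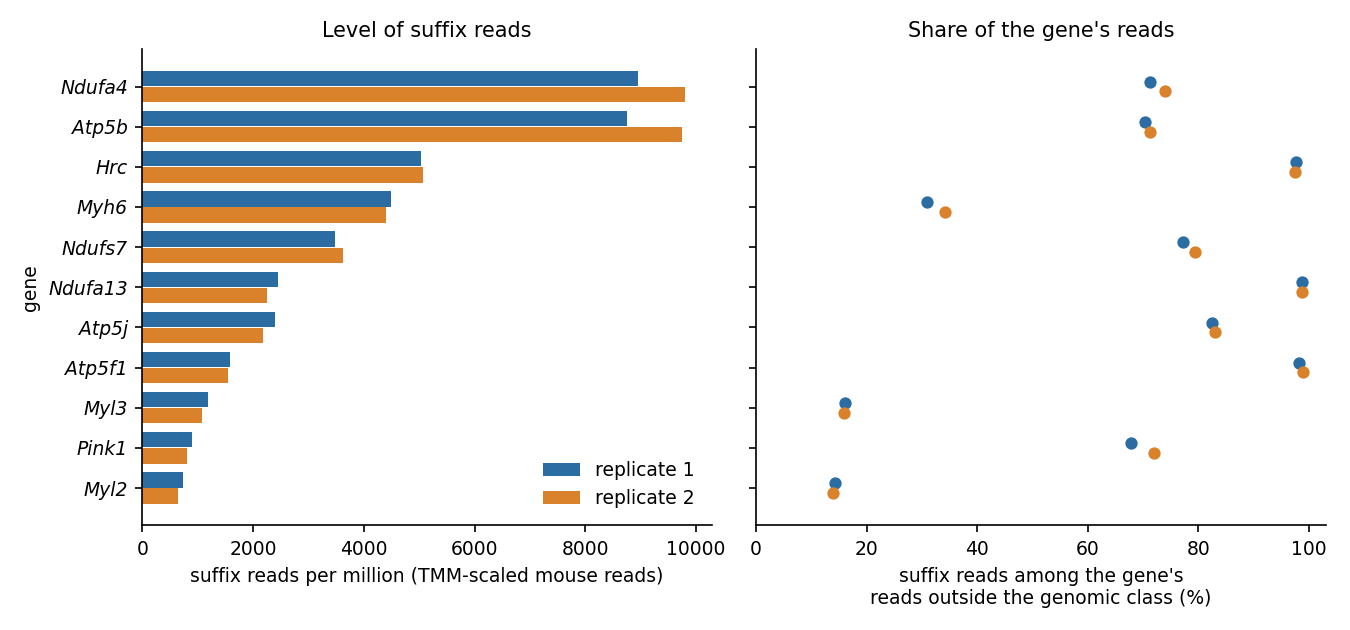
The 11 genes shown of the 12 with the highest mean level of suffix reads: left, suffix reads in CPM in each library; right, suffix reads as a percentage of the gene's reads outside the genomic class, 1 point per library. Ndufa4 and Atp5b lead in level, Ndufa13, Atp5f1 and Hrc have shares above 97%, and Myl2 and Myl3 sit near 14% and 16%.

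Myh6, the alpha heavy chain of cardiac myosin, had the most models of any gene, 114 and 106. Its 2794 and 2968 suffix reads were 32.6% ± 2.25 (SD, n = 2) of its reads. Of these, 2026 and 2168 fitted the 39-exon transcript Myh6-201, and their first kept exons were unevenly spread along it. A model beginning at exon 2, which lacks only the noncoding first exon, held 465 and 397 reads. Models beginning at exons 36 and 38 held 286 and 339, and 328 and 381. In both libraries the exon 36 model began at the annotated start of another transcript of the gene. The exon 38 model began at no annotated exon edge. Exons 26 and 33 followed with 92 and 94, and with 80 and 105 reads, while exon 6 had 2 and 3.

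Actn2, the alpha-actinin of the cardiac Z-disc, showed a single peak. The model that begins at exon 12 of 21 held 291 of 371 reads on the leading transcript in replicate 1 and 396 of 484 in replicate 2, which is 78.4% and 81.8%. No other exon exceeded 10 reads in replicate 1 or 23 in replicate 2. Atp2a2, the SERCA2 calcium pump of the sarcoplasmic reticulum, peaked at exon 8 of 21 with 74 and 91 reads. At exon 18 it had 0 and 39, but replicate 1 listed the same intron chain with 34 reads in another subclass, that of models that are both prefix and suffix of known transcripts. Ogdh, a subunit of the 2-oxoglutarate dehydrogenase complex, had its highest values at exon 21 of 23 (32 and 31 reads) and exon 15 (30 and 23).

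**Figure D3:**
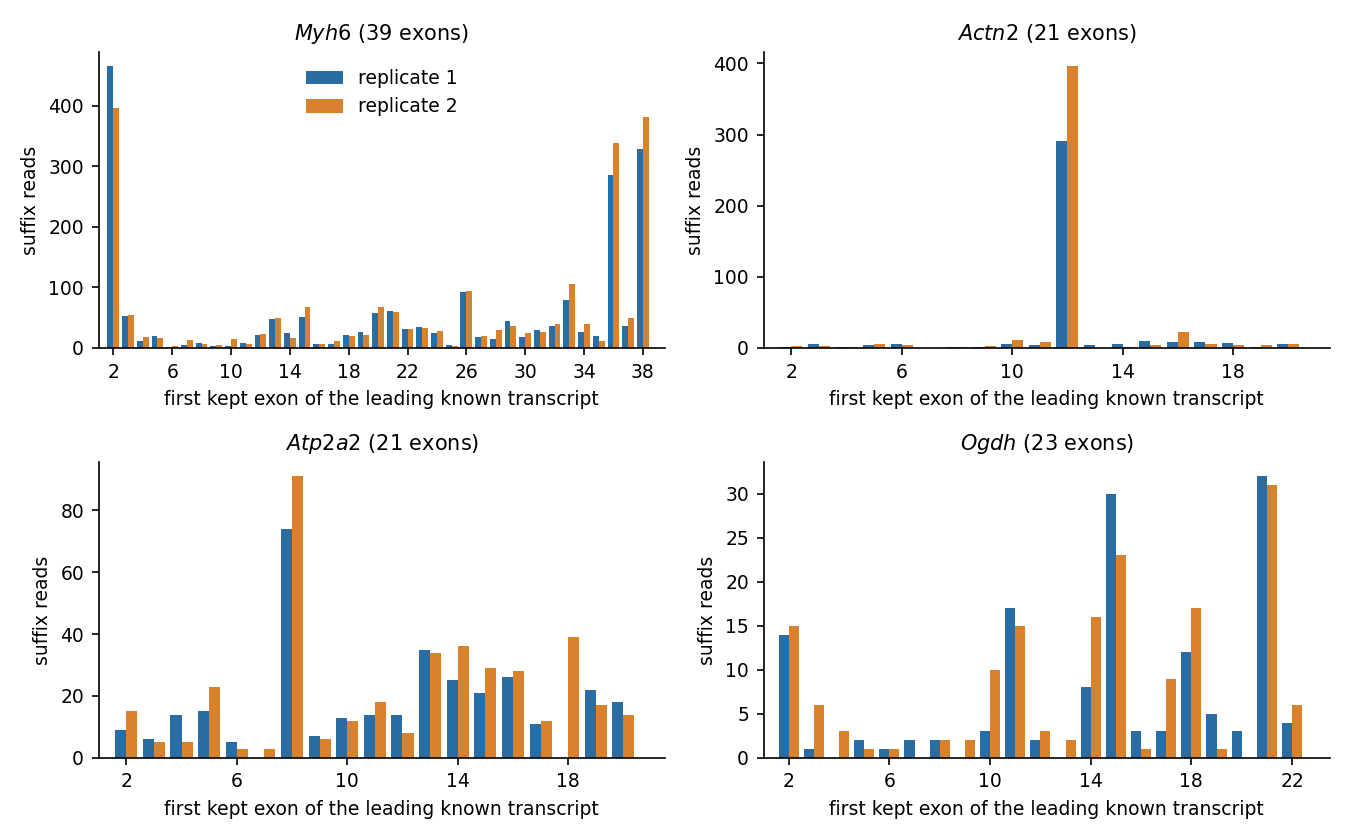
Suffix reads (y axis, read counts) by the first kept exon (x axis, numbered from the 5' end of the leading known transcript) in the 4 genes with the most suffix reads among those whose leading known transcript had listed reads and 20 or more exons, 1 bar per library. Myh6 has peaks at exons 2, 36 and 38, Actn2 1 peak at exon 12, and the peaks sit at the same exons in both libraries, except exon 18 of Atp2a2, listed under another subclass in replicate 1. Counts are not scaled by exon length.

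Of the 15891 models, 4139 were found in both libraries. They were 43.2% and 39.7% of models but held 48782 and 54463 reads, or 88.3% and 87.8%. With a match under any class counted, 43.7% and 40.2% of suffix models were found in the other library. For known transcripts of 2 or more exons it was 80.9% and 76.2%, and for prefix models 27.7% and 27.3%. New combinations of known splice sites had 37.3% and 35.7%, and models with new splice sites 23.1% and 21.7%. These classes also differ in reads per model. Recurrence followed read number: 26.8% and 23.7% of single-read models were found in the other library, against 99.1% and 99.4% of those with 10 or more reads. Across the 4139 shared models, reads in the libraries had a Pearson r of 0.845 on the log2 scale and a Spearman rho of 0.677, given as a description, since models of a gene share its reads. A further 52 models of each library were listed with the same introns under another class in the other.

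First bases of shared models were identical in 83.1% of pairs and within 10 bases in 86.2%. Where both first bases were at annotated exon edges (3759 models) 89.9% were identical, and where both were off such an edge (110 models) 49.1% were. Listed 3' ends were identical in 75.04%. The leading Ndufa4 model, for example, ended 721 bases further on in replicate 2 than in replicate 1, with lengths of 1082 and 361 bases.

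Suffix shares varied with gene structure. Among 2547 genes with at least 20 reads outside the genomic class in each library and a leading known transcript of 2 or more exons, the median share was 0% for 2 to 3 exons. It was 1.52% and 1.33% for 4 to 6 exons, 3.70% in each for 7 to 10, 6.52% and 6.54% for 11 to 20, and 14.8% and 14.6% from 21 exons up. By length of the leading transcript, the medians ran from 0.926% and 0.901% below 1000 bases to 6.25% and 7.41% from 4000 bases up. Across these genes the share had a Spearman rho of 0.474 and 0.493 with exon number and of 0.234 and 0.248 with length, where exon number and length are themselves related and a gene with more exons allows more suffix models.

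**Figure D4:**
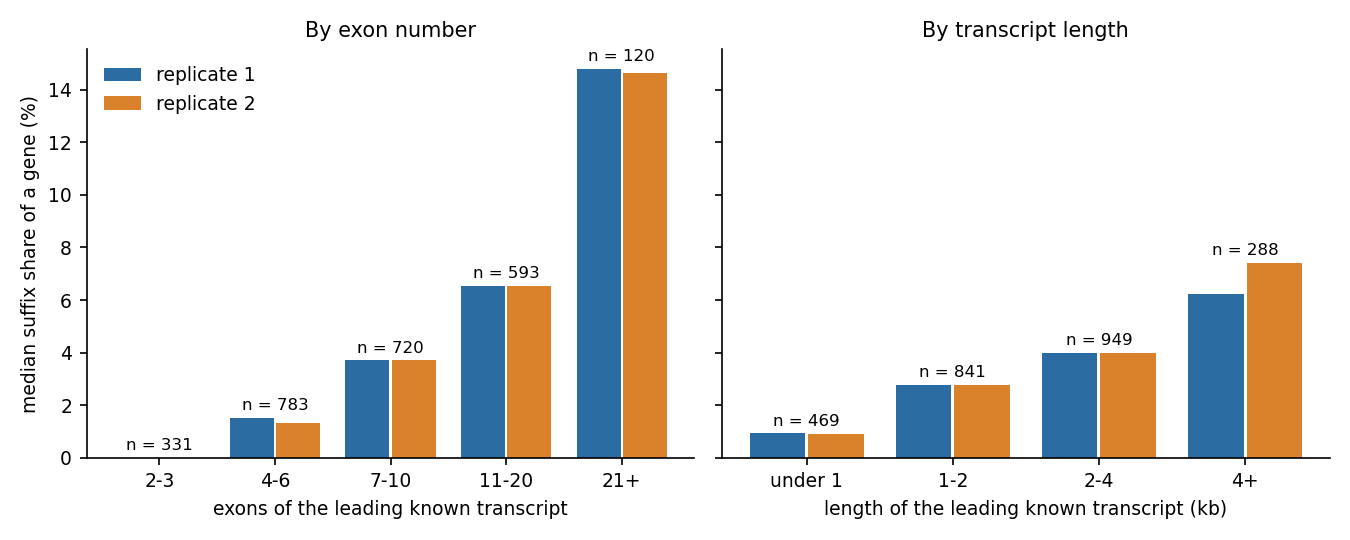
Median suffix share per gene (percent of reads outside the genomic class) by the exon number (left) and length (right) of the gene's leading known transcript, 1 bar per library, with the number of genes above each pair. The median rises from 0% at 2 to 3 exons to 14.8% and 14.6% at 21 or more.

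Single genes of like exon number lay far apart. Ndufab1, the mitochondrial acyl carrier protein, has 5 exons and had 0 suffix reads of 1122 and 1159, which, for counting error only, allows a share of up to 0.267% and 0.259%. Prdx2 and Prdx1, which are peroxide-reducing enzymes, Atp5h, a further ATP synthase subunit, and Ndufb5, a complex I subunit, followed with 0.450%, 0.561%, 0.482% and 0.650% (means of 2 libraries). At the other end, Ndufa13 had a share of 98.7%. Its exon number, also 5, is that of the annotated parent of its leading model, a transcript with no listed reads. The exon number of Ndufab1 is that of its leading known transcript. The other genes of highest share beside those above were Ttll1, a tubulin glutamylase subunit (93.1% ± 2.80), Fabp4 (85.3% ± 0.949), Ssbp1, which binds single-stranded mitochondrial DNA (84.1% ± 0.318), Tnnt2 and Gm20427, with SD over n = 2. Gm20427 (118 of 120 and 137 of 137 reads) overlaps H2-Ke6 and Slc39a7 on the same strand, so its reads are uncertain.

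Of 3074 genes with at least 20 reads of any class in each library, 748 had no suffix read in either library and 71 had a mean share above 50%. In 17 of these 71, no read of a known transcript was listed in either library. Besides Ndufa13 they included Tnnt2, cardiac troponin T (316 and 297 suffix reads), Mybpc3, cardiac myosin-binding protein C (147 and 167), Flnc, filamin C (26 and 14), and Tnnt1, slow skeletal troponin T (67 and 50). Mybpc3, Flnc and Tnnt1 were chosen after their values were seen. Tnnt2 and Mybpc3 had 20 and 35 models in replicate 1.

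The gene lists are read against all genes, for which suffix reads were 9.24% and 9.89% of reads of every class, with a median of 2.63% per gene in each library. For the 24 respiratory chain and ATP synthase genes, 22 had suffix models, and the summed share was 22.7% and 25.1%. The median over genes was only 2.59% and 2.70%, since Ndufa4 and Atp5b supplied most reads, and Atp5c1, the gamma subunit of ATP synthase, was next with 311 and 369. For the 26 sarcomere genes, 23 had models, the summed share was 14.5% and 14.8%, and the median 14.5% and 13.4%. Calcium handling genes (14 of 16 with models) had a summed share of 19.3% and 20.4%, led by Hrc, with a median of 3.82% and 2.96%. After Hrc and Atp2a2, Trdn, the triadin of the calcium release complex, had 117 and 111 suffix reads.

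Metabolic genes had lower summed shares, but their medians over genes were above the 2.63% of all genes. The medians were 6.40% and 7.14% for fatty acid oxidation and 5.42% and 4.43% for the citric acid cycle and pyruvate. For glycolysis and glucose uptake they were 7.65% and 8.33%, and for carriers and shuttles 4.11% and 3.94%. Fatty acid oxidation genes (19 of 20 with models) had 7.51% and 7.61%, with Acadm, the medium-chain acyl-CoA dehydrogenase, at 303 of 921 and 342 of 1078 reads, Etfb, an electron transfer flavoprotein subunit, at 211 and 246 suffix reads, and Cd36, a fatty acid transporter, at 171 of 318 and 193 of 373. Citric acid cycle and pyruvate genes (18 of 18) had 7.21% and 7.23%, with Ogdh at 145 and 165 suffix reads and Mdh1 at 66 and 78. Glycolysis and glucose uptake genes (16 of 16) had 8.61% and 8.66%, led by Aldoa (164 and 183), Pgam2 (158 and 187) and Ldhb (113 and 125). The list of carriers and shuttles (11 of 11) had 1.95% and 2.01%. Slc25a4, the heart ADP/ATP carrier, had 115 suffix reads of 18439 and 122 of 19715. Ckm had 299 and 334 suffix reads, and Ckmt2 59 and 70.

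Lists for other cell types of the heart rested on fewer reads. Suffix models in both libraries were found for 10 endothelial, 13 matrix and fibroblast, 3 macrophage and 2 erythroid genes. Endothelial genes (15 of 15 with models) had a summed share of 46.1% and 50.2%, most of it from Fabp4, a fatty acid binding protein of capillary endothelium and fat cells, while the median was 12.03% and 10.4%. The very long Vwf followed with 23 and 19 suffix reads of 29 and 25, and Eng with 14 and 10. Extracellular matrix and fibroblast genes (14 of 16) had 7.60% and 7.05%, with Gsn at 40 and 45 suffix reads, Lamb2 at 43 of 98 and 33 of 63 reads, and Col4a1 at 16 of 34 and 20 of 46. Macrophage genes (8 of 10) had 6 and 13 suffix reads in all, with C1qa at 1 and 4, C1qb at 2 and 1, and Cd74 and Csf1r each at 0 and 3. Erythroid genes (2 of 5) had 19 and 10 suffix reads, or 0.101% and 0.126%, all in Alas2 (10 and 5) and Hbb-bt (9 and 5). None of the 8 mitochondrially encoded genes, which have no introns, had a suffix model.

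Genes known for short forms from an internal start had suffix models in 12 of 15 cases and a summed share of 11.5% and 10.5%. Of the 15 genes, 13 had any reads and 8 had suffix models in both libraries. Ttn, the giant sarcomere protein titin, had 18 of 56 and 30 of 61 reads in suffix models. Gnas, a G protein alpha subunit, had 20 of 399 and 20 of 454. Ank1 had 15 and 1 suffix reads, Speg 9 and 6, Kcnh2 8 and 5, Asph 4 and 4, and Dmd 1 and 2. The counts do not separate internal starts from shortened reads.

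Suffix reads per model were compared between libraries with an exact two-sided binomial test. Adjustment was by Benjamini-Hochberg over 7468 models with at least 10 reads over both libraries. These were known transcripts and models of 2 or more exons of the other classes. Single-exon models outside the known class were not tested. Of all models tested, 1.74% were called at an adjusted p under 0.05 (0.75% higher in replicate 1 and 0.991% higher in replicate 2). Of the 902 suffix models among them, 13 were called, or 1.44%, with 2 higher in replicate 1 and 11 in replicate 2, and 69 had an unadjusted p under 0.05. The share called was near that over all models tested.

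The smallest adjusted p was that of Myl4, the atrial essential light chain, whose 4-exon model had 178 and 587 reads, 3.04-fold higher in replicate 2 (95% interval 2.57 to 3.62, adjusted p = 4.5e-42 by the exact binomial test). Myl7, the atrial regulatory light chain, was higher in replicate 2 in a 6-exon model (70 and 157 reads, 2.07-fold, 1.55 to 2.78) and a 3-exon model (13 and 44 reads, 3.12-fold, 1.65 to 6.32). Reads of these genes outside suffix models were also higher in replicate 2, with 85 and 203 for Myl4 (2.20-fold, 1.70 to 2.87) and 85 and 210 for Myl7 (2.28-fold, 1.76 to 2.97). Suffix shares were 69.0% and 74.7% of Myl4 reads and for Myl7 85 of 170 and 221 of 431 reads were suffix reads, neither called (adjusted p = 1 by Fisher's exact test). The atrial list as a whole had suffix shares of 26.2% and 29.0%, and 7 of its 9 genes had models, with Pam, a peptide-amidating enzyme, at 60 and 81 suffix reads.

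Fabp4 was likewise higher in replicate 2 in a 2-exon model (238 and 396 reads, 1.53-fold, 1.30 to 1.81) and a 3-exon model (69 and 128), and in its other reads (50 and 95). Flot1, which encodes a membrane raft protein, had 26 and 77 reads in a 2-exon model (2.73-fold, 1.73 to 4.44), with 65 and 79 in its other reads. The abundant models of Atp5b and Ndufa4 were called at small differences, 1.12-fold and 1.09-fold higher in replicate 2. Myh6 had calls in both directions: its 38-exon model was 1.27-fold higher in replicate 1, and a 2-exon model with 105 and 177 reads was 1.55-fold higher in replicate 2. The 38-exon model was not called with total mouse reads as library sizes (adjusted p = 0.101 by the exact binomial test). With all models of at least 1 read tested, both Myh6 models (adjusted p = 0.266 and 0.191), the 3-exon models of Myl7 and Fabp4 and the Cfd and Ank1 models were not called. Cfd, the adipocyte protein adipsin, had 0 and 12 reads in a 2-exon model and 22 and 296 other reads. Against a floor of 3 reads, the Cfd model was 3.69-fold higher in replicate 2 (95% lower limit of the ratio without the floor 2.56). An Ank1 model had 10 and 0 reads, 3.61-fold higher in replicate 1 against the same floor (95% lower limit without it 2.43).

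**Figure D5:**
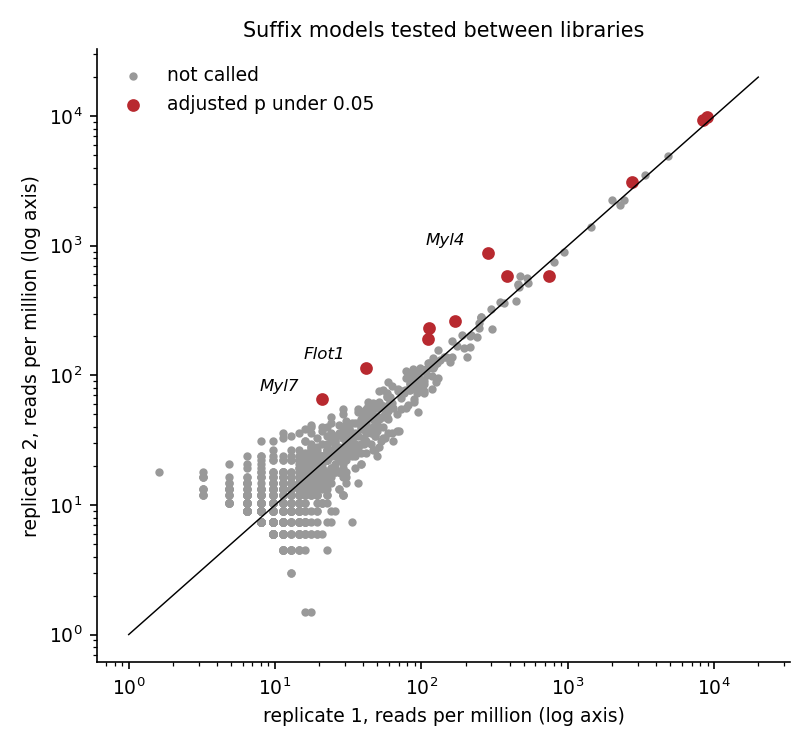
Suffix models with at least 10 reads over both libraries and at least 1 in each (900 models), in CPM in replicate 1 (x) and replicate 2 (y), both log axes, with the line of equality; the 11 called models are in red. Myl4 and Myl7 lie above the line, and the called models at the top right lie close to it.

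The suffix share per gene was compared with a two-sided Fisher exact test on reads outside the genomic class, adjusted over 3078 genes. At an adjusted p under 0.05, 7 genes or 0.227% were called, 2 with a higher share in replicate 1 (0.065%) and 5 in replicate 2 (0.162%), and 89 had an unadjusted p under 0.05. They were Tnnt2, Myh6, Cmya5, Ivns1abp, Ndufa4, Ndufs1 and Perm1. In 4 of these the call went with the class given to other reads of the gene. Tnnt2 had shares of 74.9% and 90.3%, but 67 reads listed as single-exon incomplete matches in replicate 1 stood against 63 genomic-class reads in replicate 2. With genomic-class reads in the base, the Tnnt2 shares were 74.9% and 75.8%.

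Perm1, a muscle regulator of mitochondrial genes, had shares of 59.6% and 25.5%, with 59 genomic reads in replicate 1 and 41 single-exon incomplete reads in replicate 2. With genomic reads included its suffix reads were 28 of 106 and 25 of 100. Cmya5, which encodes the large muscle protein myospryn, went from 39.4% and 95.7% to 38.2% and 57.9%, and Ivns1abp from 24 of 160 and 26 of 541 reads to 24 of 323 and 26 of 543, in both cases with an adjusted p of 1. Ndufs1, the largest complex I subunit, had 12 of 462 and 43 of 515 reads in suffix models. A 20-exon chain with 23 suffix reads in replicate 2 was listed with 23 reads in replicate 1 as a new combination of known splice sites.

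Myh6 and Ndufa4 had no such switch of comparable size. The Myh6 share was 31.0% and 34.2% (adjusted p = 0.010 by Fisher's exact test), and the Ndufa4 share 71.2% and 73.9% (adjusted p = 0.040). With genomic-class reads included, only Myh6 kept an adjusted p under 0.05, at 0.016.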

How the data were processed

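The authors deposited, for each library, a transcript table with raw read counts per model and a gene annotation file with model coordinates. Per the file notes, assembly mm10 and GENCODE M21 were used, and the model files name TALON as their source. The aligner, its version and the filters are not stated per the labels or file notes, nor is how first and last bases were set. Each library was annotated alone, so models were matched here by chromosome, strand and introns, and known transcripts by identifier.

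Library sizes were scaled by TMM (edgeR 4.0.16, R 4.3.3) on genes with at least 10 reads, giving 0.986 and 1.014 times 630211 and 664319 mouse reads. Minimums of 1, 5, 10 and 20 reads were tried, and 10 was kept as in earlier processing of these data. Size factors of DESeq2 1.42.0 were an alternative. The binomial and Fisher tests (scipy 1.17.1) were tested on simulated data. For the parent, the transcript with the most reads, then the longest, was taken. Intervals are exact Clopper-Pearson at 95%, and those over models treat the models of a gene as independent.

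The models, 14 gene lists and rules were chosen with earlier results of these data known. Named are the 12 genes with the highest suffix level, the 10 shared models with the most reads in the lower library, called models and genes, 3 genes per list, the internal-start genes with suffix reads in both libraries, the 10 genes of highest share (at least 100 reads in each library) and the 5 of lowest (at least 500 reads, 5 or more exons). Some of the items these rules name are not reported here.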

Additional observations from a re-analysis of the deposited data

How the results depend on the processing

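Called suffix models numbered 13 with TMM, with total mouse reads and with DESeq2 size factors, though not all the same models with total mouse reads, 12 with at least 50 reads per model and 7 with at least 1. TMM on genes with at least 1, 5 and 20 reads, added after seeing the data, gave 14, 13 and 13. Genes called for suffix share fell from 7 to 3 with at least 1 read in each library, to 2 with known reads as the only base and to 1 with genomic-class reads included, and were 6 with at least 50 reads. The suffix share was 9.89% of reads outside the genomic class and 11.9% of reads in models of 2 or more exons, and 8.77 to 9.34% for a single library. Models in both libraries fell from 4139 to 1856 with at least 2 reads in each, and were 4153 by gene and first intron. First bases inside an annotated exon were 67.4% with only parents that had reads and 79.9% for models of at least 2 reads (81.2 to 81.7% in single libraries). First bases near a start were 21.3% within 10 bases, 21.7% within 100 and 23.9% for models of at least 2 reads (21.51 to 21.52% in single libraries). Close first bases of shared models were 85.0% within 5 bases, 89.0% within 50, and 54.5% off annotated edges in both, the last added after seeing the data. For moves other than those from a narrower or wider definition, the cause was not tested. No paired analysis was possible because there is 1 group. Results that compare the libraries cannot be recomputed without 1 of them. By depth, 26.8% and 23.7% of single-read models were found in the other library, against 95.8% and 94.5% of models of 5 to 9 reads.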

Other observations

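A few suffix models with at least 10 reads in 1 library were not listed as suffix models in the other. Besides the Ank1 and Cfd models with no listed read there, Pacsin3 had a 10-exon model with 10 reads in replicate 1, listed with 10 reads in replicate 2 as a new combination of known splice sites. Phyhd1 had an 8-exon model with 13 reads, listed there with 12 in the same way. Of the 52 models of replicate 1 listed under another class in replicate 2, 28 were in that class and 20 had new splice sites; for replicate 2 the numbers were 24 and 14.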
